A study of Bos taurus with 2 samples.

Results

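Neural progenitors that carried transcripts of PAX3 without PAX6 were compared with those that carried PAX6 without PAX3, in single-cell RNA from day 25 bovine embryos. Each embryo was a chimera that had taken up bovine embryonic stem cells. A progenitor was a cell barcode with at least 2000 UMI (unique molecular identifiers, which count captured transcript molecules), at least 1 UMI of SOX2 and fewer than 3 UMI in all of the neuron genes ELAVL3, ELAVL4 and STMN2. Of 4437 barcodes, 1606 met these conditions. PAX3 alone was seen in 209 of them and PAX6 alone in 307, which makes 516 cells on the 2 sides together. The other progenitors held both transcripts (341 cells) or neither (749 cells), and these classes are used below as points of reference.

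The 2 libraries, replicate 1 and replicate 2, form a single group and are each labelled as a day 25 bovine embryo. No untreated, non-chimeric or wild-type group was part of the data, so every comparison is between cells of the same library. Embryos were dissociated with papain and the cells then sorted, with no gate named. Whether separate embryos gave the 2 libraries is not stated, so the spread between them may be technical. A row for GFP was present in the gene table, and the labels do not say which cells carried the reporter.

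SOX2 is a transcription factor of neural stem and progenitor cells. PAX3 and PAX6 are paired-box transcription factors that help to pattern the neural tube from back to belly. In textbook accounts PAX3 marks the dorsal progenitors and PAX6 reaches its highest level in intermediate and more ventral progenitors, with an overlap between them. FOXA2 and SHH mark the floor plate at the ventral midline, where SHH, the ligand of the Hedgehog pathway, is made. PTCH1 and HHIP bind SHH, are induced by it and are read as targets of the pathway.

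A PAX6 UMI was seen in a larger share of progenitors with PAX3 than of those without it. In replicate 1, a PAX6 UMI was seen in 61.9% of progenitors with PAX3 (exact Clopper-Pearson 95% interval 55.6 to 68.0) and in 34.3% of those without PAX3 (29.9 to 39.0). In replicate 2 the shares were 62.0% (56.3 to 67.5) and 25.4% (22.0 to 29.0). Deeply sequenced cells show both transcripts more easily, so each cell was thinned to 2000 UMI. After thinning, 505 and 692 cells still had a SOX2 UMI and met the rule. PAX6 was then seen in 41.1% of cells with PAX3 and 25.5% of cells without it in replicate 1, and in 36.8% and 16.9% in replicate 2. The order was the same in both libraries. Cells with both transcripts were then the smallest class, 51 against 73 with PAX3 alone and 97 with PAX6 alone in replicate 1, and 56 against 96 and 91 in replicate 2. These shares describe the cells by the transcripts that chose them and were not tested.

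The 4 classes were of unequal size. PAX3 alone was found in 13.8% of progenitors in replicate 1 and 12.4% in replicate 2, and PAX6 alone in 21.9% and 17.1%. The double-positive class held 22.5% and 20.3%, and 41.9% and 50.2% had neither transcript. After thinning the double-positive class held 10.1% and 8.09%, while the PAX3-only class held 14.5% and 13.9%, so the first depended more on depth. Globin-rich cells, which should lack all of these transcripts, gave 0 cells with a PAX3 UMI of 9 in replicate 1 and 0 of 20 in replicate 2. With so few cells, a count of 0 allows shares of up to 33.3% and 15.0%. Their median depths were 27366 and 25822 UMI, against 5844 and 6716 in the progenitors, and 1 of the 9 cells and 0 of the 20 had a PAX6 UMI. SOX2, of which 1 UMI admits a cell, was seen in 0 of the 9 and in 3 of the 20 (1 of the 20 after thinning to 2000 UMI). Intervals and limits cover counting error only.

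**Figure D1:**
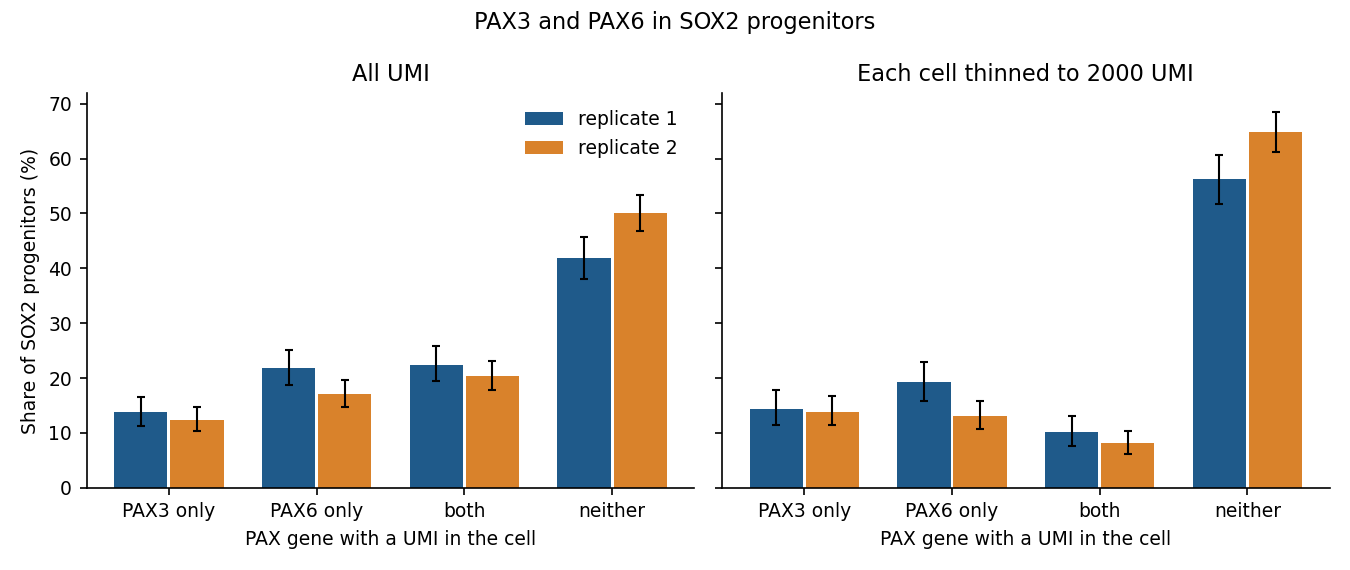
Share of SOX2 progenitors (%) in each of the 4 classes set by PAX3 and PAX6 UMI, with all UMI (left) and with each cell thinned to 2000 UMI (right). Bars are the 2 libraries, and lines are exact 95% intervals. The double-positive class is near 20% before thinning and at 10.1% and 8.09% after it.

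Membership of a side often rested on 1 molecule. Among PAX3-only cells, 52.1% in replicate 1 and 45.2% in replicate 2 had exactly 1 PAX3 UMI, and among PAX6-only cells 50.3% and 55.1% had exactly 1 PAX6 UMI. A cell with 0 UMI of the other gene may still express it, so the sides are enriched groups and not pure types. Summed over cells, PAX3 stood at 387 and 411 counts per 1000000 UMI (CPM) on its own side and at 456 and 425 CPM in double-positive cells. PAX6 stood at 309 and 277 CPM on its own side and at 328 and 296 CPM in double-positive cells. Near the lower depth limit, 3 PAX3-only and 10 PAX6-only cells lay less than 200 UMI above it, and 7 and 2 more lay just outside, no more than 200 UMI below it. Just inside the neuron gene limit, with 2 UMI of those genes, were 36 PAX3-only and 53 PAX6-only cells, and 21 and 35 more lay just outside with 3 UMI. With 0 UMI of SOX2, 121 more cells would have been PAX3-only and 145 PAX6-only.

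Markers of neural progenitors were present on both sides. SOX2, which chose the cells, was at 408 and 402 CPM in PAX3-only cells and at 429 and 381 CPM in PAX6-only cells. NES, the intermediate filament of neural stem cells, was at 719 and 763 CPM in PAX3-only cells and at 977 and 1021 CPM in PAX6-only cells (edgeR quasi-likelihood adjusted p = 0.179). Neural crest, which also uses PAX3, left little trace. The summed level of 12 neural crest genes was 36.4 and 59.4 CPM on the PAX3 side and 48.6 and 38.3 CPM on the PAX6 side. ERBB3 was at 0 on the PAX3 side in replicate 2, and FOXD3 was at 0 there in replicate 1. Of 13 genes of paraxial mesoderm and muscle, another site of PAX3, 10 and 11 were at 0 on the PAX3 side, and their sum was 6.94 and 3.13 CPM.

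The 2 sides differed in their shares of ribosomal protein and mitochondrial transcripts, but not in 1 direction in depth. The median depth was 5681 and 5247 UMI per cell on the PAX3 side and 5187 and 5974 on the PAX6 side, so the order differed between the libraries. Ribosomal protein transcripts made up 9.77% and 10.3% of UMI in PAX3-only cells and 13.3% and 14.9% in PAX6-only cells. The share was 6.51% and 11.6% in double-positive cells and 16.3% and 18.9% in cells with neither gene. Mitochondrial transcripts made up 0.578% and 0.403% of UMI on the PAX3 side and 0.744% and 0.608% on the PAX6 side. Of the 4 classes, 3 cells carried 1 of the 6 barcodes that occurred in both libraries, and leaving them out gave 174 and 125 called genes in place of the 180 and 128 described next.

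Summed counts of the 4 classes in the 2 libraries were fitted together with edgeR, with library as a replicate block, and PAX3-only cells were set against PAX6-only cells. Of 10696 genes that passed the filter on low counts, 180 were higher on the PAX3 side (1.68% of genes tested) and 128 on the PAX6 side (1.2%) at an adjusted p under 0.05. All 308 called genes (2.88%) had the same direction in both libraries, and the values of the sides did not overlap for any of them. The sides did not overlap for 47.1% of all genes tested, and 1823 genes had an unadjusted p under 0.05. Most differences were modest. The median log2 fold change of called genes, PAX3 side over PAX6 side, was 0.80 for those higher on the PAX3 side and -0.78 for those higher on the PAX6 side, and 47 and 36 genes differed by more than 2-fold. Without the replicate block, 70 and 16 genes were called. The balance between the sides moved with the scaling. Library totals without TMM factors gave 230 and 79 calls, which raised the PAX3-side part of all calls from 58.4% to 74.4% and shifted the median log2 fold change of all genes from 0.00 to 0.06. DESeq2 gave 43 and 61 calls (41.3% on the PAX3 side), of which 41 and 27 were also called by edgeR, but its filter left the adjusted p as NA for 9539 genes. Of the edgeR calls, 185 were among these. In the gene lists below, a gene not called by DESeq2 may therefore be one without an adjusted p.

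The genes with the largest differences on the PAX3 side included receptors, matrix proteins and adhesion molecules. LAMA2, a laminin chain of basement membranes, was at 96.4 and 65.7 CPM in PAX3-only cells and at 21.1 and 7.85 CPM in PAX6-only cells. This was a log2 fold change of 2.51 (SE 0.31, edgeR adjusted p = 3.27e-06). ERBB4, a receptor tyrosine kinase for neuregulins, was the most abundant gene among those named on this side, at 2718 and 2596 CPM against 817 and 882 CPM (log2 fold change 1.64, SE 0.21, edgeR adjusted p = 3.27e-06). Its level in double-positive cells, 1903 and 1478 CPM, lay between the sides, and that in cells with neither gene was 682 and 839 CPM. GABRG3, a subunit of the GABA-A receptor, was at 98.1 and 121 CPM against 32.2 and 25.5 CPM, a log2 fold change of 1.94 (SE 0.26).

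THSD4, an extracellular matrix protein, was higher on the PAX3 side by 1.82 on the log2 scale (SE 0.21), and PROM1, a membrane glycoprotein used as a stem cell marker, by 1.85 (SE 0.32). TRABD2B, a membrane protease that inactivates WNT ligands, was higher by 1.56 (SE 0.27). SOX5, a transcription factor of the SOX family, was at 660 and 716 CPM on the PAX3 side and at 303 and 272 CPM on the PAX6 side. Its log2 fold change of 1.26 (SE 0.14) had the lowest adjusted p of the named genes, 5.67e-07 by edgeR. CDH20, a cadherin, stood at 184 and 177 CPM against 80.9 and 70.6 CPM and was almost as high in double-positive cells, at 143 and 150 CPM, but at 28.7 and 24.2 CPM in cells with neither gene. SLC1A3, a glutamate transporter of radial glia and astrocytes, was higher by 1.44 (SE 0.24), NTM, an adhesion protein, by 1.27 (SE 0.22), and LIMCH1, a regulator of actomyosin, by 1.26 (SE 0.15). PMS2, a DNA mismatch repair gene, was the least even of the 12. Its log2 ratio was 0.66 in replicate 1 and 1.79 in replicate 2, and its fitted value of 1.30 (SE 0.30) turned to -0.15 when cells needed at least 2 UMI of their PAX gene.

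On the PAX6 side the named genes included the floor plate factor FOXA2 and adhesion genes. FOXA2 was at 144 and 125 CPM in PAX3-only cells and at 316 and 343 CPM in PAX6-only cells, a log2 fold change of -1.29 (SE 0.17, edgeR adjusted p = 1.33e-05). It was at 91.4 and 159 CPM in double-positive cells and highest in cells with neither gene, at 452 and 445 CPM. The values of the sides did not overlap, and the replicates of each side lay close together. In cells with at least 2 UMI of their PAX gene the log2 fold change was -2.12 (SE 0.28), and in cells without neuron UMI it was -1.33 and not called (edgeR adjusted p = 0.283). CADM2, a synaptic adhesion protein, was at 33.8 and 26.0 CPM against 110 and 65.7 CPM (log2 fold change -1.53, SE 0.26) and stood at 174 and 147 CPM in cells with neither gene. PCDH9, a protocadherin, had the largest fold among the 12, -1.95 (SE 0.34), but was uneven, with log2 ratios of -1.14 in replicate 1 and -2.73 in replicate 2.

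The rest of the named genes on the PAX6 side included enzymes and signalling proteins. ADAMTS18, a secreted metalloprotease, was at 30.4 and 21.4 CPM on the PAX3 side and at 64.3 and 91.2 CPM on the PAX6 side. ARHGAP24, a GTPase-activating protein, had a log2 fold change of -1.37 (SE 0.31), and RASL11B, a small GTPase, one of -1.26 (SE 0.26). CA2 and CA3 are carbonic anhydrases. CA3 stood at 42.3 and 52.0 CPM against 103 and 116 CPM, and CA2 at 22.0 and 38.2 CPM against 77.6 and 61.8 CPM. CDK4, a kinase of the G1 phase, had a log2 fold change of -1.26 (SE 0.29), PPP2R2B, a regulatory subunit of protein phosphatase 2A, one of -1.27 (SE 0.31), and RNASEK one of -1.34 (SE 0.30). TAGLN, an actin-binding protein, was at 66.0 and 93.3 CPM against 99.8 and 269 CPM. Its log2 fold change was -1.18 (SE 0.24), and it reversed to 0.52 in thinned cells.

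**Figure D2:**
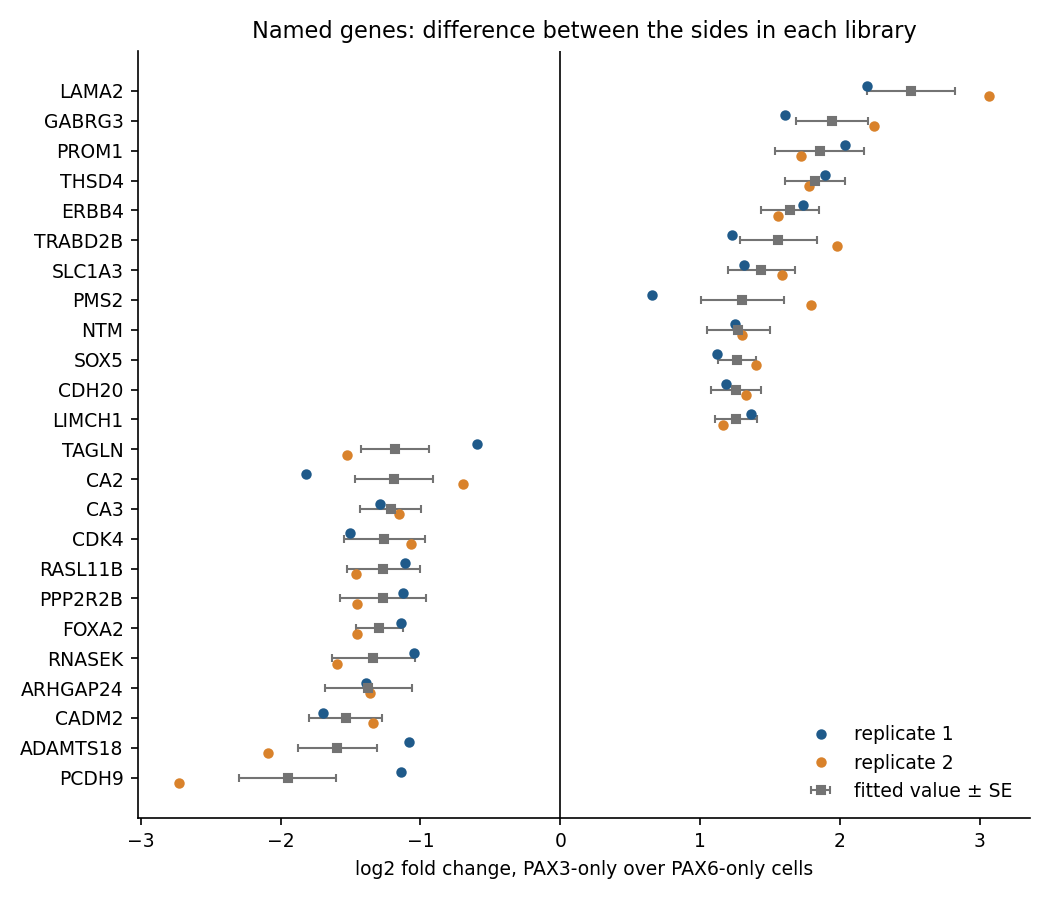
Log2 fold change of the 24 named genes, PAX3-only over PAX6-only cells. Circles are the log2 ratio within each library and grey squares the fitted value with its SE. Both libraries lie on the same side of 0 for all 24 genes, and PCDH9, PMS2, CA2 and ADAMTS18 show the widest gaps between libraries.

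How far these calls held was looked at with other fits and in subsets or thinned counts of the same cells. Kept direction in such sets, here and below, is partly built in. In thinned cells, 5 of the 11 PAX3-side genes that could be tested stayed called (THSD4, ERBB4, TRABD2B, SOX5 and CDH20) and 1 of the 8 PAX6-side genes (RASL11B). FOXA2 had a log2 fold change of -1.01 there (edgeR adjusted p = 0.197), SHH of -0.22 and CADM2 of -0.24. With DESeq2, ERBB4, SOX5, LIMCH1 and FOXA2 were called and the other 20 named genes had no adjusted p. With limma-voom all 24 were called. When cells with any FOXA2 or SHH UMI were left out, LAMA2, THSD4, ERBB4, SOX5, LIMCH1 and CADM2 stayed called. In the few cells with OTX2 and no HOX, ERBB4 (-1.66, SE 1.07), SOX5 (-1.03, SE 0.57) and LIMCH1 (-0.17) had the opposite sign and were not called.

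In the Hedgehog pathway the ligand SHH was higher on the PAX6 side, and the SHH-binding proteins PTCH1 and HHIP and the factor GLI2 on the PAX3 side. Of 16 genes tested, 4 were higher on the PAX3 side and 1 on the PAX6 side, against 1.68% and 1.2% of all genes. A positive log2 fold change was seen in 14, and the median was 0.66 against 0.00 over all genes tested. Without the replicate block 2 and 1 were called, with DESeq2 1 and 0, and with limma-voom 5 and 1. SHH, HHIP, GLI2 and DISP1 had no adjusted p with DESeq2. SHH itself was at 15.2 and 19.9 CPM in PAX3-only cells and at 45.5 and 48.1 CPM in PAX6-only cells, a log2 fold change of -1.40 (SE 0.33, edgeR adjusted p = 0.0116). It was lowest in double-positive cells, at 2.80 and 6.87 CPM, and was at 167 and 172 CPM in cells with neither gene.

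PTCH1, the receptor that SHH binds, was at 242 and 263 CPM on the PAX3 side and at 139 and 158 CPM on the PAX6 side (log2 fold change 0.77, SE 0.15, edgeR adjusted p = 0.0021). HHIP, a decoy receptor, was at 186 and 249 CPM against 86.5 and 128 CPM, a log2 fold change of 1.01 (SE 0.21, edgeR adjusted p = 0.0107). GLI2, a transcription factor of the pathway, was at 28.8 and 44.3 CPM against 14.4 and 11.8 CPM, a log2 fold change of 1.49 (SE 0.38, edgeR adjusted p = 0.021). All 3 were high in double-positive cells as well, where PTCH1 was at 215 and 221 CPM, HHIP at 256 and 179 CPM and GLI2 at 37.3 and 34.4 CPM. In cells with neither gene HHIP was at 40.0 and 35.1 CPM and GLI2 at 4.51 and 6.95 CPM, below both sides. DISP1, which releases SHH from the cells that make it, was higher on the PAX3 side by 0.64 (SE 0.15). Other members did not pass the test. BOC and GLI3 had log2 fold changes of 0.73 (SE 0.23) and 0.42 (SE 0.13), and SMO and SUFU of 0.13 (SE 0.19) and -0.00 (SE 0.23).

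The Hedgehog calls were not made in every set of cells. A FOXA2 UMI was found in 29.8% and 28.7% of PAX3-only cells and in 55.7% of PAX6-only cells in each library. After thinning to 2000 UMI the shares were 11.7% and 16.5% against 34.9% and 35.4%. Leaving out cells with FOXA2 or SHH kept 64 and 80 of 94 and 115 PAX3-only cells, and 63 and 62 of 149 and 158 PAX6-only cells. In these the log2 fold change was 0.73 for PTCH1 (SE 0.21, edgeR adjusted p = 0.0884), 0.71 for HHIP (SE 0.21, edgeR adjusted p = 0.111) and 0.66 for GLI2 (SE 0.43, edgeR adjusted p = 0.631). In all cells the values were 0.77 (SE 0.15), 1.01 (SE 0.21) and 1.49 (SE 0.38). Of the 13 Hedgehog genes tested without such cells, edgeR called none, and 4 had an unadjusted p under 0.05. In thinned cells edgeR called none of 11, with 3 under 0.05 unadjusted. Fewer cells or fewer UMI entered both of these fits, and their part in the lost calls was not tested.

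**Figure D3:**
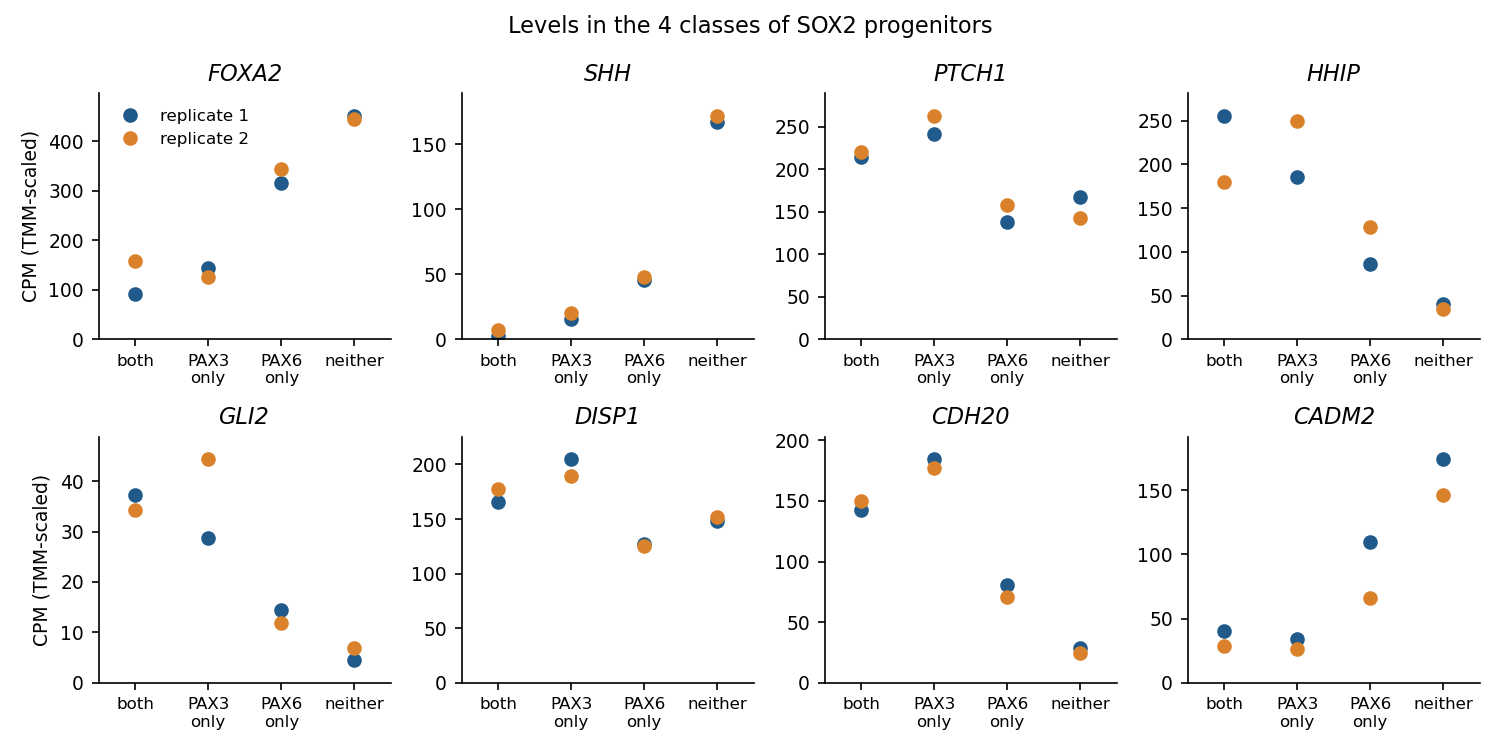
Level in CPM (linear axis from 0, scaled by TMM) of 8 genes in double-positive, PAX3-only, PAX6-only and double-negative progenitors. Each circle is 1 library. FOXA2, SHH and CADM2 are highest where neither PAX gene was seen, and HHIP, GLI2 and CDH20 are lowest there.

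Of 8 floor plate-like markers tested, 7 had a negative log2 fold change, and the median was -1.29 against 0.00 over all genes tested. None was called on the PAX3 side, and 3 were called higher on the PAX6 side, against 1.2% of all genes tested. They were FOXA2, SHH and SPON1, a secreted matrix protein of the floor plate, which was at 18.6 and 10.7 CPM against 31.0 and 39.2 CPM (log2 fold change -1.28, SE 0.37, edgeR adjusted p = 0.0497). DESeq2 called 1 of the 8 and limma-voom 2. SPON1 was not called with limma-voom (adjusted p = 0.0619), and edgeR did not call it without the replicate block (adjusted p = 0.127), without TMM factors (adjusted p = 0.0607) or with at least 4000 UMI (adjusted p = 0.21). NTN1, the axon guidance cue netrin-1, was at 30.4 and 27.5 CPM against 57.7 and 45.1 CPM and did not pass (edgeR adjusted p = 0.108). Summed over the 9 markers, the level was 278 and 217 CPM on the PAX3 side and 507 and 517 CPM on the PAX6 side. The part that such cells play in the difference between the sides was not tested.

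None of 10 dorsal transcription factors tested was called in either direction by edgeR, DESeq2 or limma-voom, and 1 had an unadjusted p under 0.05. With 2.88% of all genes tested called by edgeR, 0 of 10 lies near that share. DESeq2 left 9539 of all genes tested without an adjusted p, so its 0 calls add little. Of the 10, 5 were positive and 5 negative, and the median log2 fold change was 0.07. ZIC2, a dorsal zinc finger factor, was at 173 and 174 CPM in PAX3-only and 212 and 183 CPM in PAX6-only cells. MSX1, a factor of the dorsal midline, was at 62.6 and 67.3 CPM against 102 and 79.4 CPM (log2 fold change -0.47, SE 0.22, edgeR adjusted p = 0.254). Of 24 dorsal genes listed, 22 were in the table and 12 of these had too few counts to be tested. PAX7, the paralogue of PAX3, was not analysed here.

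Among 8 intermediate and ventral transcription factors tested, FOXA2 was the only one called. The median of the list was -0.49, and 7 of the 8 were negative. IRX3, an intermediate factor, was at 49.1 and 47.4 CPM against 78.7 and 53.9 CPM (log2 fold change -0.44, SE 0.26). NKX6-1, a ventral factor, was at 10.1 and 10.7 CPM against 5.54 and 16.7 CPM, values that overlapped between the sides. Factors of the forebrain and eye field (7 tested) and of the hindbrain segments (8 tested) gave 0 calls in either direction with edgeR, DESeq2 and limma-voom, and 3 of each had an unadjusted p under 0.05. With 2.88% of all genes tested called by edgeR, 0 calls in lists this short lie near that share. No gene of the midbrain and isthmus list had enough counts to be tested.

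Transcripts of HOX genes, which mark position from the hindbrain to the tail, were present on both sides. A HOX UMI without OTX2 was seen in 34.0% and 46.1% of PAX3-only cells and in 34.2% and 31.6% of PAX6-only cells. After thinning, the shares were 11.7% and 23.5% against 12.8% and 15.2%. OTX2, a factor of the forebrain and midbrain, without HOX was seen in 5 and 5 PAX3-only cells and in 10 and 13 PAX6-only cells. HOXA2 was at 27.1 and 48.9 CPM against 26.6 and 32.4 CPM, and none of the 3 HOX genes tested was called by edgeR, DESeq2 or limma-voom or had an unadjusted p under 0.05. Restricting all 4 classes to cells with HOX and no OTX2 gave 148 genes higher on the PAX3 side and 157 on the PAX6 side. Of the genes called in all cells that could be tested, 172 of 173 and 119 of 121 kept their direction, and 80 and 62 were called again. These cells are part of the same classes, so kept direction is no independent check.

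When the sides were split by axial class in a fit of their own, with 8 sums and 5131 genes tested, few genes were called. In cells with HOX and no OTX2, 1 gene was called (0.0195%), and in cells with OTX2 and no HOX, 22 genes (0.429%). The same HOX cells of the 2 sides gave the 148 and 157 calls above, among 8166 genes tested. There the double-positive and double-negative HOX cells shared the fit in place of the OTX2 cells. The 1 call thus does not show that the sides were alike in HOX cells. The test of the difference between the HOX and OTX2 classes called 27 genes (0.526%). The OTX2 arm of the PAX3 side held 56056 UMI from 10 cells, so these values rest on very few cells.

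Adhesion genes were divided between the sides. Of 37 cadherin and neural adhesion genes tested, 8 were higher on the PAX3 side and 4 on the PAX6 side, and the median log2 fold change was 0.30. Over all genes tested the shares were 1.68% and 1.2%, and the median was 0.00. The counts were 4 and 1 without the replicate block, 3 and 0 with DESeq2, 3 and 0 in thinned cells and 0 and 1 without cells carrying FOXA2 or SHH. The 8 were CDH20, NTM, CNTN4 (log2 fold change 1.25, SE 0.29), the teneurins TENM2 (0.90, SE 0.19), TENM4 (0.75, SE 0.14) and TENM3 (0.62, SE 0.14), LSAMP (0.57, SE 0.14) and CADM1 (0.56, SE 0.16). The 4 on the PAX6 side were PCDH9, CADM2, CNTN3 (-1.14, SE 0.30) and ALCAM (-0.56, SE 0.16). Related genes thus lay on opposite sides, CNTN4 against CNTN3 among the contactins and CADM1 against CADM2 among the nectin-like proteins. CNTN4 was at 57.5 and 61.2 CPM in PAX3-only and 26.6 and 23.5 CPM in PAX6-only cells.

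Of 44 axon guidance genes tested, 2 were called, against 2.88% of all genes tested. ROBO2, a receptor for SLIT proteins, was at 298 and 379 CPM against 204 and 166 CPM (log2 fold change 0.88, SE 0.14). EFNA1, an ephrin ligand, was at 16.9 and 12.2 CPM against 39.9 and 32.4 CPM (log2 fold change -1.31, SE 0.37).

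General progenitor genes also fell on both sides. Of 26 tested, 4 were higher on the PAX3 side and 1 on the PAX6 side, against 1 and 1 with DESeq2 and 7 and 1 with limma-voom. Over all genes tested, edgeR called 1.68% and 1.2%. PTPRZ1, a receptor phosphatase of radial glia, was at 59.2 and 59.6 CPM in PAX3-only cells and at 25.5 CPM in PAX6-only cells of each library (log2 fold change 1.22, SE 0.29). PROM1 and SLC1A3 are described above, and HMGA2, a chromatin protein of fetal stem cells, was higher by 0.62 (SE 0.13). VIM, the intermediate filament vimentin, was the exception at 1015 and 1200 CPM against 1804 and 1971 CPM (log2 fold change -0.78, SE 0.22, edgeR adjusted p = 0.0399). Below the median ribosomal protein share described further on, its log2 fold change was -0.29 and not called (edgeR adjusted p = 0.43).

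Among signalling lists other than Hedgehog, few genes were called. The share called over all genes tested was 2.88%, so 1 or 2 calls in such a list say little about that list. Of 34 WNT pathway genes tested, 2 were higher on each side, and without the replicate block 0 and 1. WNT3A, a ligand of the dorsal midline, was at 110 and 127 CPM on the PAX3 side and at 57.7 and 61.8 CPM on the PAX6 side (log2 fold change 0.99, SE 0.22, edgeR adjusted p = 0.00798). Without cells carrying FOXA2 or SHH its log2 fold change was 0.01 (SE 0.28). LRP6, a WNT co-receptor, was higher on the PAX3 side by 0.50 (SE 0.13). WNT2B, a ligand, was low on both sides, at 6.77 and 1.53 CPM against 23.3 and 31.4 CPM, and RSPO3, which enhances WNT signalling, was at 108 and 65.7 CPM against 193 and 123 CPM.

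Of 29 BMP and TGF-beta genes, GREM1, a BMP antagonist, was the only one called, at 76.1 and 56.6 CPM against 32.2 and 37.3 CPM (log2 fold change 0.92, SE 0.26, edgeR adjusted p = 0.0485). Of 20 genes on the FGF list, FGF14 (0.97, SE 0.20) and ETV1 (1.12, SE 0.28) were higher on the PAX3 side, and FGF signalling itself was not measured. Of 17 Notch genes, MAML3, a co-activator, was higher there by 0.53 (SE 0.14), and edgeR called 0 of 13 retinoic acid genes, with 4 at an unadjusted p under 0.05, 1 called by DESeq2 and 0 by limma-voom. HES5, a target of Notch, was at 118 and 191 CPM against 101 and 162 CPM, ranges that overlapped.

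No gene of the S phase or the G2 and M lists was called by edgeR, DESeq2 or limma-voom. Over all genes tested edgeR called 2.88%, so 0 or 1 call in lists of this size says little about a list. Of 30 S phase genes 3, and of 40 G2 and M genes 4, had an unadjusted p under 0.05. The medians were 0.05 and -0.22, against 0.00 over all genes tested. A negative log2 fold change was seen in 34 of the 40 G2 and M genes. Of 10 neurogenic genes, STMN1, a microtubule regulator, was higher on the PAX6 side (-0.65, SE 0.17). GAP43, a growth cone protein and the only 1 called of 9 neuron-like markers, was at 10.1 and 4.59 CPM against 49.9 and 46.1 CPM and reached 272 and 366 CPM in cells with neither gene.

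All called genes of respiration were higher on the PAX6 side. Of 39 oxidative phosphorylation genes tested, 11 were higher on the PAX6 side, against 1.2% of all genes tested, and 0 on the PAX3 side. A negative log2 fold change was seen in 38, and the median was -0.49 against 0.00 over all genes tested. DESeq2 called 2, limma-voom 10, and edgeR without the replicate block 0, with 20 at an unadjusted p under 0.05. NDUFA4, a subunit of the respiratory chain, was at 144 and 194 CPM against 266 and 287 CPM (log2 fold change -0.72, SE 0.15). NDUFS6, a subunit of complex I, had a log2 fold change of -0.78 (SE 0.20), COX8A, a subunit of cytochrome oxidase, one of -0.81 (SE 0.19), and NDUFB11 one of -0.85 (SE 0.23). LDHA, lactate dehydrogenase, was the 1 called gene of 21 in glycolysis (-0.61, SE 0.14), and the immediate-early gene FOS the 1 called of 25 stress and dissociation genes (-0.57, SE 0.14).

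Ribosomal protein genes had the same direction. All 76 had a negative log2 fold change, with a median of -0.56. DESeq2 called 27, limma-voom 36 and edgeR 2, RPS26 (-0.76, SE 0.20) and RPL36A (-0.59, SE 0.15). Over all 10696 genes tested, PAX6-side calls numbered 61 with DESeq2, 169 with limma-voom and 128 (1.2%) with edgeR. The 2 edgeR calls of 76 thus lay near the share of all genes. Copies of ribosomal protein genes elsewhere in the genome make the count of any single one uncertain. The median share of ribosomal protein transcripts over all progenitors was 5.29% of UMI. Above it lay 38.3% of PAX3-only cells in each library and 43.6% and 47.5% of PAX6-only cells. Among cells below it, 37 of 76 ribosomal protein genes and 22 of 38 oxidative phosphorylation genes were positive, with medians of -0.00 and 0.01 and 0 edgeR calls, and 5 and 2 genes had an unadjusted p under 0.05. Since the ribosomal protein share itself divided the cells, a smaller difference in those genes follows from the division and is no test of it. In the same cells 132 and 69 genes were called, ERBB4, SOX5, PTCH1, HHIP and FOXA2 among them, and 178 of 178 PAX3-side genes but 96 of 117 PAX6-side genes kept their direction. Among cells above the median, 26 and 9 genes were called. ERBB4, SOX5, HHIP and FOXA2 were among them, and PTCH1 was not (log2 fold change 0.81, edgeR adjusted p = 0.0959). In these cells 73 of 76 ribosomal protein genes and 35 of 39 oxidative phosphorylation genes were negative, with medians of -0.21 and -0.23 and 0 edgeR calls, and 15 and 7 had an unadjusted p under 0.05.

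**Figure D4:**
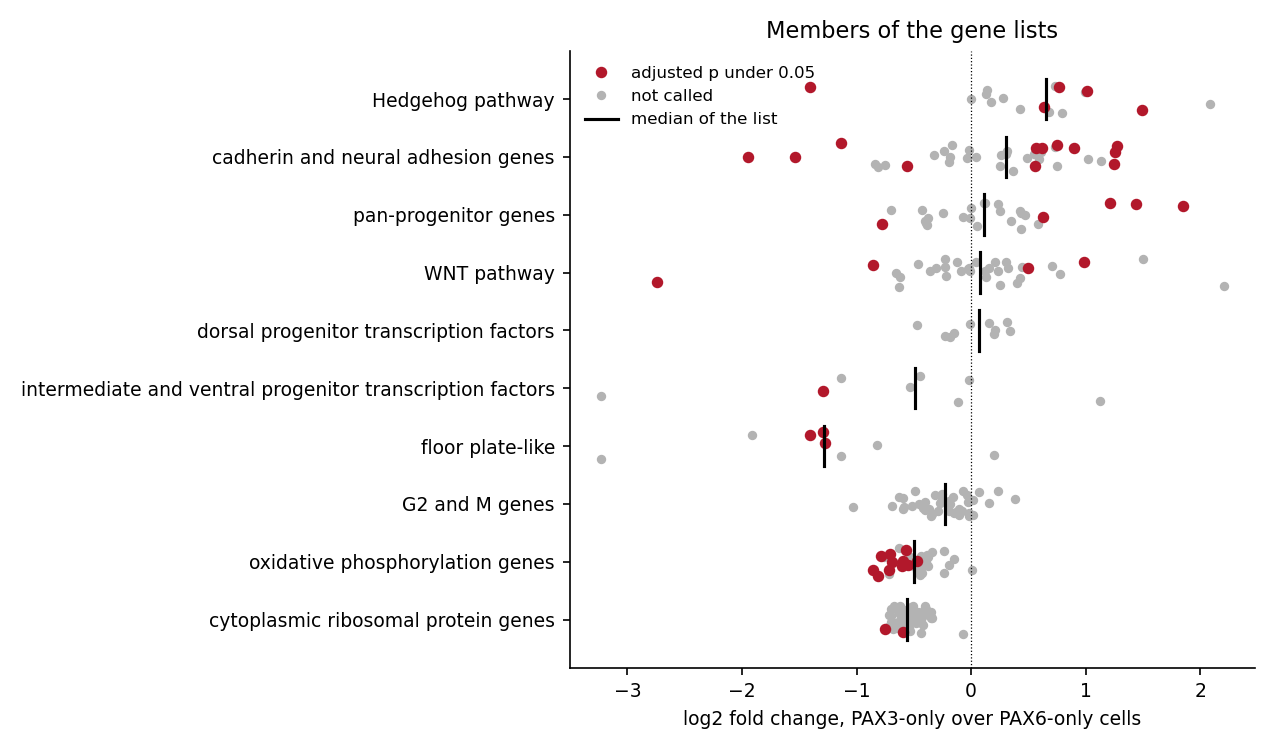
Log2 fold change, PAX3-only over PAX6-only cells, of the tested members of 10 gene lists. Each point is a gene, red where the adjusted p was under 0.05, and the black line is the median of the list. Hedgehog genes lie mostly to the right of 0 (median 0.66), and floor plate-like (-1.29), oxidative phosphorylation (-0.49) and ribosomal protein genes (-0.56) to the left.

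GFP, present as a gene in the table, was at 1145 and 940 CPM in PAX3-only cells and at 1764 and 1745 CPM in PAX6-only cells, without overlap. Its log2 fold change of -0.75 (SE 0.22) did not pass the test (edgeR adjusted p = 0.053), but passed with limma-voom (adjusted p = 0.00501) and DESeq2 (adjusted p = 0.00738). It also passed with only the 2 sides in the fit (edgeR adjusted p = 4.98e-12) and in HOX cells without OTX2 (edgeR adjusted p = 0.0404). Without the replicate block it did not pass (edgeR adjusted p = 0.199). The log2 fold change of GFP was -0.16 in thinned cells (edgeR adjusted p = 0.742). Without cells carrying FOXA2 or SHH it was -0.35 (edgeR adjusted p = 0.563). Cells with neither PAX gene had 3313 and 3463 CPM, and double-positive cells 788 and 1164 CPM. At least 1 GFP UMI was seen in 84.0% and 77.4% of PAX3-only cells and in 88.6% and 88.0% of PAX6-only cells. After thinning to 2000 UMI the shares were 71.3% and 60.9% against 76.5% and 75.3%. In cells with a GFP UMI alone, 65 and 50 genes were called, and all 180 and 127 of the genes called in all cells that could be tested kept their direction. Most cells of both sides are in this set, so kept direction is no independent check.

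The classes outside the comparison took opposite places beside the sides. Of the 180 genes higher on the PAX3 side, the mean level in double-positive cells was nearer to the PAX3 side for 123, and of the 128 genes higher on the PAX6 side, for 118. For 78 of the 128 the double-positive level was below even that of PAX3-only cells. In cells with neither gene, 32 of the 180 and 10 of the 128 were nearer to the PAX3 side. For 104 of the 128 genes higher on the PAX6 side, the level in these cells was above that of PAX6-only cells, as for FOXA2, SHH, CADM2, VIM and GAP43. These counts are a description of genes chosen by the same fit and carry no test.

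Beside the floor plate-like list, markers of other cell types gave 1 call on the PAX3 side and 3 on the PAX6 side, those of neuron-like (GAP43), surface ectoderm (KRT19) and roof plate-like cells included. Over all genes tested, edgeR called 1.68% and 1.2%, and none of these lists had more than 9 genes tested. KRT19, a keratin, was at 57.5 and 97.8 CPM on the PAX3 side and at 169 and 154 CPM on the PAX6 side (log2 fold change -1.04, SE 0.26) and was the 1 called of 4 surface ectoderm markers tested. Without cells carrying FOXA2 or SHH its log2 fold change was 0.88. The roof plate-like list held WNT3A and RSPO3, which lay on opposite sides. Neural crest-like (3 tested) and mesenchyme-like markers (8 tested) gave 0 calls with edgeR, DESeq2 and limma-voom, and 1 gene of each had an unadjusted p under 0.05. With 2.88% of all genes tested called in either direction by edgeR, 0 calls in lists this short say little. Mesenchyme-like markers summed to 170 and 408 CPM on the PAX3 side and 131 and 252 CPM on the PAX6 side, and erythroid-like markers to 699 and 624 CPM against 723 and 937 CPM. The part of these transcripts in the differences between the sides was not tested.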

How the data were processed

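Cells of day 25 chimeric bovine embryos were measured with the Chromium Next GEM 3′ kit of 10x Genomics, per the labels' protocols. The deposited table holds raw UMI counts of 4437 barcodes and 17846 genes, 11182089 UMI in replicate 1 and 15427708 in replicate 2. Cell Ranger, R 4.1.2, Seurat 4.3.0 and bosTau9 are named per the submitters' processing notes. Doublets were not called, and cells above 15000 UMI were left out as an alternative. The number that opens a column name gave its library, and 0 columns belonged to other samples. XIST was not analysed here.

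The deposited counts were summed per class and library and fitted with edgeR 4.0.16 in R 4.3.3 (robust quasi-likelihood, TMM, filterByExpr, library as a block, Benjamini-Hochberg adjustment over all genes tested at 0.05). The 8 sums left 3 residual degrees of freedom, to which the spread over all genes added a median of 34.3. The block follows from the source, since all classes of a replicate come from the same library. Across genes, the difference between libraries correlated by only 0.02 between the PAX3-only and PAX6-only classes, the 2 that were compared. The other pairs of classes gave 0.03 to 0.22, the highest between double-positive cells and cells with neither gene. Thus the 2 sides shared almost no deviation of their library, and without the block 70 and 16 genes were called. PAX3, PAX6, SOX2, ELAVL3, ELAVL4 and STMN2 chose the cells and were not tested. CPM of tested genes are TMM-scaled, and CPM of these 6 genes and of summed marker lists are per library total. DESeq2 1.42.0 and limma-voom (limma 3.58.1) were alternatives. Other alternatives changed the filter, the cells kept or the depth, by thinning with seed 1. On simulated data with 10696 genes, the fit of all 8 sums recovered 61% of 2-fold and 93% of 4-fold changes between the sides, with 6 false calls. Changes were set only in genes above a minimum mean count, and no difference between libraries was simulated. The shares recovered therefore do not cover genes of lower count or data with such a difference.

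Members, lists and tests were chosen with earlier results of these data known. The rule named the 12 genes per direction with the largest log2 fold change among called genes at 50 CPM or more on the higher side that had 1 direction in both libraries, leaving out unnamed identifiers, and up to 4 called genes per list. GFP was always named. Other list members, the fifth Hedgehog gene and further called adhesion genes among them, were named after their values were seen. The ribosomal protein and HOX lists were added after seeing the data. Fits cover how these 2 libraries vary and not how embryos vary.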

Additional observations from a re-analysis of the deposited data

Results flagged for a closer look

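For 9 genes the difference between the PAX3 and PAX6 sides was itself different between cells with HOX and no OTX2 and cells with OTX2 and no HOX, by the edgeR interaction test, and these are the named extremes of the 27 genes that passed it. The log2 difference between the classes was 9.39 for ZFHX4, 9.01 for SOX6 and 8.51 for COL11A1. These fitted values depend on the prior count, since no count of any of the 3 genes was seen in PAX3-side OTX2 cells. With 3 counts over both libraries as the floor, the PAX6-side level in OTX2 cells was 6.03-fold, 5.93-fold and 2.70-fold that floor. These ratios leave out the error of the PAX6-side counts (58, 57 and 26) and the variation between cells, so they are not lower limits. Within OTX2 cells edgeR did not call COL11A1 (adjusted p = 0.0572). The log2 difference was 4.56 for NUAK1 and 4.19 for HES5, the latter with 5 counts in PAX3-side and 84 in PAX6-side OTX2 cells. Of these 84 counts 72 came from replicate 2, where HES5 was at 41.0 CPM on the PAX3 side and 997 CPM on the PAX6 side, against 129 and 180 CPM in replicate 1. It was -3.75 for SEC24A, -3.71 for MLXIP, -3.10 for RNF19B and -2.39 for ETF1. The PAX3-side OTX2 class held 10 cells, and limma-voom called 0 genes for this difference, with 642 at an unadjusted p under 0.05.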

How the results depend on the processing

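Counts are given as genes higher on the PAX3 side and on the PAX6 side. They were 180 and 128, and 43 and 61 with DESeq2, 70 and 16 without the replicate block, 348 and 385 with only the 2 sides in the fit, 112 and 74 with at least 4000 UMI, 62 and 13 without any UMI of neuron genes, 34 and 11 in thinned cells, 65 and 50 with a GFP UMI only, and 0 and 0 in OTX2 cells without HOX, where edgeR gave 172 genes at an unadjusted p under 0.05. No filter on low counts moved the PAX6 side to 221. Chosen after seeing the data were the exclusion of cells with FOXA2 or SHH (34 and 14), cells above the median ribosomal protein share (26 and 9) and below it (69 on the PAX6 side), and library totals without TMM (79 on the PAX6 side). Other alternatives stayed within 1.5 times. Fewer cells and fewer UMI entered most of these fits, and the cause was not tested.

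For HOX cells (1 gene), cells with OTX2 (22) and their difference (27), the counts were 0, 80 and 7 with DESeq2, 0, 110 and 0 with limma-voom, 7, 59 and 48 without the filter, 4, 101 and 49 without the replicate block, 49, 250 and 235 with at least 2 UMI of the PAX gene, and 2, 12 and 1 with at least 2 HOX UMI. With at least 4000 UMI the first 2 were 2 and 12.

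The mean share of PAX3-only cells, 13.1%, was 14.2% after thinning, 11.7% at 4000 UMI and 11.6% without neuron UMI. That of double-positive cells, 21.4%, was 9.10% after thinning and 17.7% without neuron UMI, and that of cells with neither gene, 46.0%, was 60.6% after thinning. Leaving out a library gave 12.4% to 13.8% for PAX3 only, 17.1% to 21.9% for PAX6 only, 20.3% to 22.5% for both and 41.9% to 50.2% for neither. Leaving out a library from the fits was not run, since no residual degrees of freedom remain.

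Of 53 named genes 14 reversed under some alternative. Over 1081 pairs of a gene and an alternative, 15 reversed, 293 kept the direction but lost the call, 6 gained it and 766 were the same. The call was lost for 28 genes without the replicate block, 39 without FOXA2 or SHH cells and 34 in thinned cells. Of the genes tested in OTX2 cells 6 reversed, 12 lost the call and 1 was the same. In OTX2 cells the log2 fold change was -1.66 for ERBB4, -1.03 for SOX5, -0.17 for LIMCH1, -0.39 for LRP6, -1.24 for ROBO2 and 0.82 for FOS. In HOX cells it was -0.17 for PMS2 and 0.54 for RSPO3, and with 2 UMI of the PAX gene -0.15 for PMS2. In thinned cells it was 0.52 for TAGLN, 0.15 for NDUFS6 and 0.0035 for COX8A. Below the median ribosomal protein share it was 0.0128 for NDUFA4 and 0.13 for RPL36A, and without FOXA2 or SHH cells 0.88 for KRT19.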
